A study of Drosophila melanogaster with 30 samples.

Results

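Lamellocytes (LMs) of wasp-infested lymph glands were taken from 4 Drop-seq libraries by a gate on 6 marker genes. A barcode counted as an LM-gated cell if *atilla*, *ItgalphaPS4*, *PPO3*, *CG1208*, *CR44948* and *CG14610* together had at least 3 unique molecular identifiers (UMIs, each standing for 1 captured transcript) and at least 0.05% of the UMIs of the cell. This gave 905 of the 10179 barcodes of infested lymph glands, with 195, 215, 342 and 153 cells in libraries 1 to 4. Over the whole series, 7398 of 50849 barcodes in 30 libraries passed the same gate. The cells were thus chosen by the measured UMIs of the 6 genes, which are given only as a description.

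The study profiled hemocytes of *Drosophila* Oregon-R larvae, from normal or wasp-infested animals, at ages counted in hours after egg laying (AEL). Infested larvae were exposed to the parasitoid wasp *Leptopilina boulardi* at 72 h AEL, and their lymph glands were dissected at 96 h AEL. Each lymph gland library pooled the primary lobes of many larvae, so it holds no information on single animals. The groups used here were infested lymph gland of 96 h AEL (4 libraries), normal lymph gland of 96 h AEL (5 libraries, no wasp) and infested circulation of 120 h AEL (3 libraries), with the other groups given for their levels only.

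Lamellocytes are large, flat blood cells that are rare in healthy larvae and appear after parasitoid wasps lay their eggs. They attach to the egg in layers, and the resulting capsule is melanized. They rely on integrins and a heavily built cytoskeleton to spread and adhere, and can arise from prohemocytes (PHs), the progenitors of the lymph gland, or from plasmatocytes (PMs), its phagocytic macrophages. The other cells of the infested lymph gland were therefore also split by markers. PM-gated cells (4557) had at least 3 UMIs and 0.05% of their UMIs on *Hml*, *Pxn*, *NimC1* and *eater*, and more of these than of *Tep4* and *Ance*. PH-gated cells (3812) met the same limits on *Tep4* and *Ance*, and 905 further barcodes met no gate.

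The infested lymph gland libraries held between 8017498 and 23256620 UMIs. LM-gated cells had a median of 5832 UMIs and 1547 genes, against 5388 UMIs and 1413 genes in the other cells. Mitochondrial UMIs took a median of 3.75% in LM-gated and 4.10% in other cells. No pair of lymph gland libraries of 96 h AEL shared more than 3 cell barcodes.

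The gate was a range rather than a boundary. The share of UMIs on the 6 genes ran from 0.0502% to 7.52% with a median of 0.305%. The LM-gated cell with the 5th lowest share stood at 0.0512%, and the 5th highest cell left out despite 3 gate UMIs stood at 0.0481%. In all, 154 cells lay between 0.05% and 0.1%, 194 between 0.1% and 0.2%, and 202 at 1% or more. *atilla*, a surface protein of the Ly6 family, was detected in 95.6% of LM-gated cells, *CG14610* in 67.0%, *PPO3*, the prophenoloxidase of lamellocytes, in 46.6% and *ItgalphaPS4*, an integrin alpha subunit, in 16.7%. All 6 genes were detected in 100 cells, while *atilla* was the only one in 234 cells.

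LM-gated cells made up 9.22%, 11.8%, 7.54% and 8.94% of the 4 infested lymph gland libraries, a mean of 9.38% ± 1.79 (SD, n = 4). The 5 normal lymph gland libraries of the same age held 21 such cells among 10027, a mean of 0.165% ± 0.144 (SD, n = 5). The deposited barcodes of both groups had not been filtered alike. Every infested barcode had at least 337 genes and at most 10.2% mitochondrial UMIs, while the normal libraries of 96 h AEL held 110 barcodes under 400 genes and 94 above 10% mitochondrial UMIs. With 1 cell filter applied to both groups the difference below was 8.85 points. Every infested library lay above every normal one. The difference of 9.22 percentage points had p = 0.00794 in an exact two-sided permutation test over libraries, the smallest p that 126 splits can give. The gate itself was proposed from results of these libraries, so this p is not independent evidence. When every cell was thinned to 1000 UMIs before gating, the difference was 5.23 points, and without *atilla* in the gate it was 5.00 points. Pairing libraries by their number left out normal library 5 and gave 9.19 points. The exact p = 0.125 was the smallest that 16 sign changes can give. The labels give no batch that libraries of the same number would share.

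**Figure D1:**
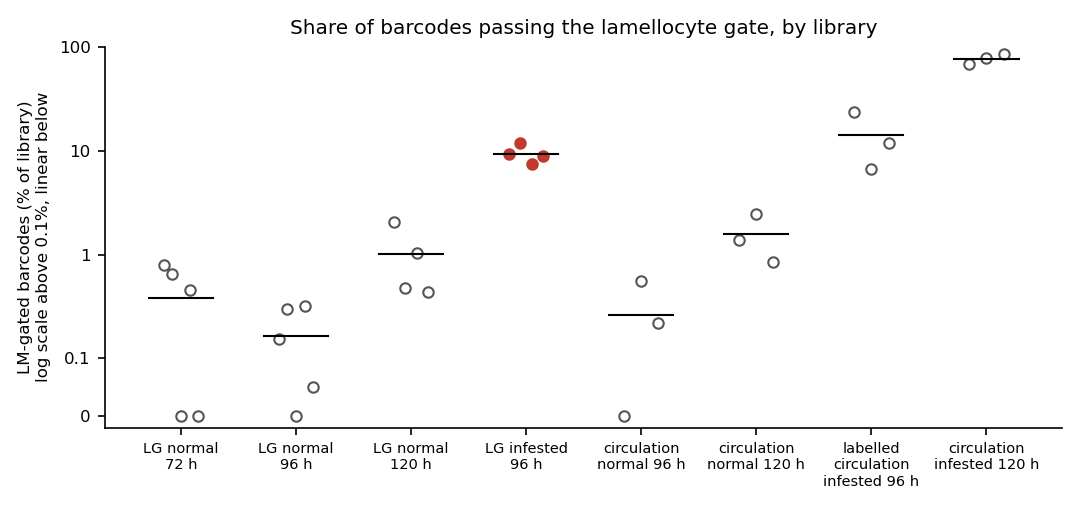
Share of barcodes passing the LM gate in each library (points) with the group mean (line), in percent on an axis that is logarithmic above 0.1% and linear below. The 4 infested lymph gland libraries (filled) lay between 7.54% and 11.8%, above all 5 normal lymph gland libraries of 96 h AEL.

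In the other groups the same gate passed 0.381% of barcodes in normal lymph glands of 72 h AEL and 1.01% at 120 h AEL. In the circulation of infested larvae at 120 h AEL, it passed a mean of 77.1% ± 8.33 (SD, n = 3). The 3 libraries labelled infested circulation of 96 h AEL held 14.2% ± 8.77 LM-gated barcodes. They also held 31.4% to 45.4% PH-gated barcodes, against at most 0.661% in the normal circulation of 96 h AEL. Since progenitor markers at that level go against their label, these 3 libraries entered no test.

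The first question was which other genes set LM-gated cells apart from the remaining cells of the same glands. UMIs were summed per library over LM-gated and over other cells, and 6783 genes were tested with edgeR. Values are UMIs per 1000000 UMIs of a sum (CPM), scaled by the TMM factors of the fit (scaled CPM), and changes are called at a Benjamini-Hochberg false discovery rate (FDR) under 0.05. Of these genes, 37.7% were called, 19.3% higher and 18.4% lower in LM-gated cells, and the libraries of both cell groups did not overlap for 23.6%. A call was therefore common, and shares of called genes in a list are read against these values. The replicates are separate libraries, and the p-values measure the spread between them. With the library as a block 2555 genes were called, without it 1349, and 1234 genes were called after thinning all cells to 1000 UMIs.

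A pair of tubulins stood among the 12 genes with the largest rise. *betaTub60D*, a beta-tubulin isoform known from lamellocytes and muscle, had 1989, 4162, 1963 and 1981 scaled CPM in the LM-gated cells of libraries 1 to 4, against 14.3, 19.7, 15.4 and 23.2 in the other cells. All 4 libraries showed it, with library 2 the highest, and the log2 fold change was 7.10 ± 0.15 (SE; FDR = 2.52e-13, edgeR). At least 1 UMI was found in 65.0% of LM-gated and 7.61% of other cells, or 50.8% and 1.80% after thinning to 1000 UMIs. Its partner *alphaTub85E*, an alpha-tubulin isoform (chromosome 3R, 9731221 to 9733250, minus strand, BDGP6 assembly), had 1129, 3404, 926 and 1031 scaled CPM against 14.02, 19.5, 7.17 and 16.7. The difference of 6.75 ± 0.18 on the log2 scale (FDR = 3.02e-12) was again widest in library 2. By contrast *betaTub56D*, the general beta-tubulin, was only 0.24 ± 0.05 higher.

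*Drip*, an aquaporin that lets water cross membranes, had 126, 348, 91.7 and 99.5 scaled CPM in LM-gated cells. In the other cells it did not exceed 2.12 in any library, a log2 difference of 6.95 (FDR = 4.44e-13). *CG2556* had 455, 639, 466 and 528 scaled CPM against 6.88, 10.2, 9.37 and 14.4, the most even of the strong differences over libraries (log2 fold change 5.73). *Sep4*, a septin that forms filaments, rose by 6.016 and *CG4607*, a predicted sugar transporter, by 5.86. The remaining leading genes have no sure role here: *CG34330* (chromosome X, 19068275 to 19068973, minus strand; 7.91), *CR43432* (7.27), *CG12655* (7.19), *CG7497* (6.57) and *CG8398* (5.52). *CR42738* (6.23) lies opposite the gate gene *CG14610* on chromosome 3R (7143487 to 7144295), which it covers whole, so its value cannot be told apart from the gate gene where reads were not counted by strand.

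Of 14 known lamellocyte genes outside the gate, 11 were higher, none was lower and 3 were not called, with a median log2 fold change of 1.62 beside −0.02 over all genes tested. *mys*, the beta integrin that pairs with the alpha subunits, had 813, 865, 602 and 582 scaled CPM in LM-gated and 272, 238, 192 and 204 in other cells. The groups did not overlap, and *mys* was 1.66 ± 0.06 higher (FDR = 9.62e-11). *cher*, a filamin that crosslinks actin, was 1.92 higher, *mthl4*, a Methuselah-like receptor, 2.47, *Zasp52*, a PDZ-LIM protein of integrin junctions, 3.20 and *rhea*, the talin that ties integrins to actin, 1.75. *kay* and *puc*, the Fos factor and the phosphatase induced by JNK signalling, were not called. *puc* had 277, 456, 265 and 175 scaled CPM in LM-gated and 278, 450, 263 and 213 in other cells, with overlapping groups (−0.05 ± 0.06, FDR = 0.613), and *kay* had −0.00 ± 0.06 (FDR = 0.964).

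**Figure D2:**
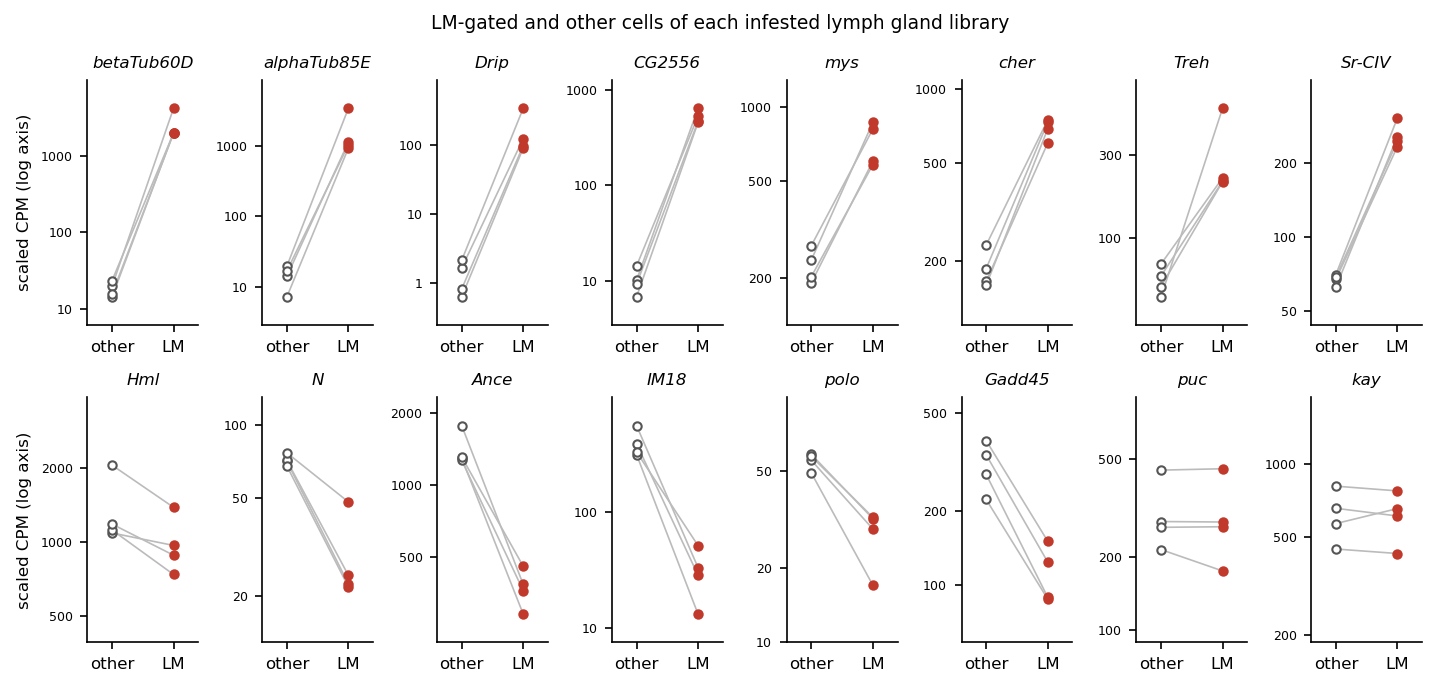
Scaled CPM (log axis, range set per gene) of 16 genes in other cells (open) and LM-gated cells (filled) of each of the 4 infested lymph gland libraries, with lines joining the same library. *betaTub60D* rose from at most 23.2 to at least 1963 scaled CPM, while *puc* and *kay* overlapped between both groups.

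Adhesion and actin genes were mostly higher. Among 20 integrins and linkers, 15 were higher and none lower (median 1.25), including *Itgbetanu*, the second beta integrin (3.15), and *ItgalphaPS5*, an alpha subunit (2.95). *Vinc*, the vinculin that strengthens adhesions (1.52), *Ilk* and *parvin*, which bind each other behind integrins (1.33 and 1.24), and *Pax*, the paxillin (1.25), rose too, while *Fak* did not pass (0.20 ± 0.14, FDR = 0.315). Of 51 actin cytoskeleton genes, 34 were higher and 4 lower (median 0.57). *Act5C*, a cytoplasmic actin, had 10208, 11419, 9366 and 9298 scaled CPM against 5379, 5149, 4298 and 4059, without overlap (1.10 ± 0.04). *Rac2*, a small GTPase of hemocyte spreading, was 1.28 higher, and *Arp2* and *Arp3*, the core of the complex that branches actin filaments, were higher by 0.77 and 0.84. The lower members were *dia*, *pbl*, *Rok* and *Actn*, of which *dia*, *pbl* and *Rok* act in cell division among other roles.

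Of 47 genes that the study used to mark LMs of normal lymph glands, 41 were higher and none lower (median 1.17); that list was drawn from other libraries of the same series. Its strongest members beside tubulins were *CG5835* (5.43), *CG10126* (4.45) and *CG18557* (4.31). *CG5835* had 185, 472, 109 and 94.1 scaled CPM in LM-gated cells against at most 8.70 in the others. Calmodulin, *Cam*, the calcium sensor, was among the most abundant, with a mean of 6950 ± 505 against 2454 ± 282 scaled CPM (SD, n = 4 each).

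**Figure D3:**
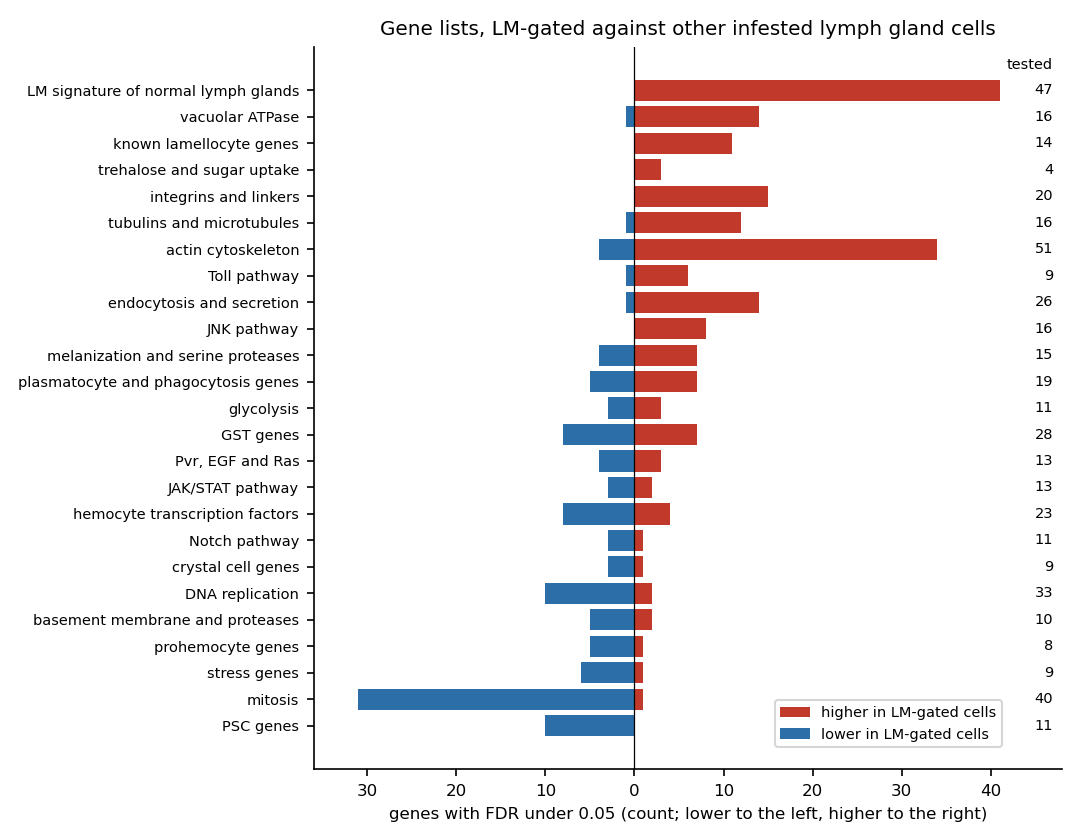
Number of genes of each list that were higher (right) or lower (left) in LM-gated than in other cells at an FDR under 0.05, with the number tested at the right edge. Mitosis genes (31 of 40 lower) and PSC genes (10 of 11 lower) stood at one end, and LM signature genes (41 of 47 higher) at the other.

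Sugar supply genes stood out within a small list. *Treh*, the trehalase that splits the blood sugar trehalose, had 211, 556, 212 and 222 scaled CPM in LM-gated and 52.9, 46.1, 60.7 and 71.2 in other cells (2.31 ± 0.24, FDR = 3.08e-06). *Tret1-1*, the trehalose transporter, was 3.09 higher. Together with *CG4607*, 3 of 4 tested members were higher and none was lower, and *UGP* did not pass. Glycolysis did not move one way, with 3 genes higher (*Gapdh2*, *PyK* and *Tpi*), 3 lower (*Hex-A*, *Ald* and *Pgk*) and 5 not called. Of 16 subunits of the vacuolar ATPase, the pump that acidifies vesicles, 14 were higher, but by small amounts (median 0.38). Among 26 endocytosis and secretion genes 14 were higher, led by *Rab11* (1.11) and *Rab1* (1.01), which act in recycling and in transport from the endoplasmic reticulum.

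Cell division genes were lower. Of 40 mitosis genes, 31 were lower and 1 higher (median −0.71). *polo*, a mitotic kinase, had 31.8, 17.0, 28.9 and 32.3 scaled CPM in LM-gated and 58.2, 48.9, 55.1 and 57.2 in other cells, without overlap (−1.03 ± 0.12, FDR = 1.61e-05). *aurB*, the kinase of chromosome segregation, (−0.89) and *Cdk1*, the kinase that starts mitosis (−0.60), were lower as well. DNA replication genes moved less, with 10 of 33 lower, 2 higher and 21 not called. *Gadd45*, a stress-induced gene, was lower in all 4 libraries, with a mean of 113 against 307 scaled CPM (−1.46), and so was *Hsp83*, the Hsp90 chaperone (−0.45).

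Of 8 prohemocyte genes 5 were lower, 1 was higher (*CG30090*, 1.08) and 2 were not called (median −1.67). *IM18*, listed with prohemocytes, had 33.0, 28.4, 13.2 and 51.1 scaled CPM in LM-gated cells, against 309 to 548 in the others (−3.81 ± 0.16). *Tep4* and *Ance*, the prohemocyte markers, were lower too (−1.90 and −1.94). Of 11 genes of the posterior signalling centre (PSC), the niche of the gland, 10 were lower. *kn*, its collier factor, had no UMI in library 1, 0.517 and 0.507 scaled CPM in libraries 2 and 3, and 6.72 in library 4, against 17.8 to 26.3 in other cells. *CG15550* also came almost wholly from library 4, with 52.4 scaled CPM there and at most 3.04 in the other LM-gated sums, against 158 to 207 in other cells. *mthl7*, a PSC marker, had 0 UMIs in LM-gated cells, at least 28.9-fold lower than in other cells against a floor of 3 UMIs over all 4 libraries. Its UMIs came from only 60 of 9274 other cells (0.647%). Against PM-gated cells alone, 5 of the 11 PSC genes were lower, 2 higher and 4 not called.

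Of 9 crystal cell genes, 3 were lower, 1 was higher (*CG7860*, 0.90) and 5 were not called (median −0.26). *PPO1*, a prophenoloxidase of crystal cells, had 0 UMIs in LM-gated cells and 794 in the other cells, at least 28.8-fold lower by the same floor. Those UMIs came from only 15 of 9274 other cells (0.162%), and 0 of 905 LM-gated cells allows a share of cells with a UMI of up to 0.331%, so a difference in that share was not detectable at this depth. The fold rests on library 1, without which it was at least 8.57-fold. *PPO2* had 2 UMIs, both in library 1, and its level in the other cells was 77.0 times higher (95% counting interval 21.3 to 637, which covers counting error only), or at least 19.2 times without library 1. A *PPO2* UMI was found in 56 of 9274 other cells (0.604%) and 2 of 905 LM-gated cells (0.221%). The fold therefore rests on few cells and does not describe the other cells at large. The remaining leading lower genes were *CG13160* (−3.96), *Swim* (−3.77), *CG43187* (−3.65), *CG11236* (−2.89), *CG8317* (−2.82), *CG6023* (−2.74), *Cyt-b5-r* (−2.20) and *apt*, a transcription factor (−2.18). Markers of muscle, dorsal vessel, ring gland, neurons and fat body gave 7 testable genes, of which none was called.

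In the pathways tied to hemocyte fate, called members went in both directions except in JNK signalling, and their shares are read against the 37.7% of all genes. *N*, the Notch receptor, had 22.4, 24.3, 21.8 and 48.4 scaled CPM in LM-gated and 70.8, 71.4, 67.8 and 76.7 in other cells (−1.43 ± 0.14, FDR = 2.01e-06). *Ser*, its ligand Serrate (−1.18), and its target *E(spl)mbeta-HLH* (−0.68) were also lower, *kuz*, a protease that cleaves the receptor, was higher (0.37), and 7 of 11 Notch pathway genes were not called. In JAK/STAT, *Stat92E*, the transcription factor, (−0.60), and *et*, a receptor-like inhibitor of the pathway (−0.95), were lower, while *Socs36E*, a feedback inhibitor, was higher (1.67). Of 13 genes of that pathway 8 were not called. In JNK signalling 8 of 16 were higher and none lower, including *egr*, the TNF ligand Eiger (1.32), and the kinases *Tak1* (1.29) and *msn* (0.93).

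In the Toll pathway 6 of 9 were higher, among them the adaptor *Myd88* (0.92) and *Drs*, an antifungal peptide (2.17), and *Dif*, one of its NF-kappaB factors, was lower (−1.28). *aos*, a secreted inhibitor of EGF signalling, had 11.8, 29.4, 13.7 and 8.06 scaled CPM against at most 1.08 (4.87 ± 0.45). *Pvf2*, a growth factor, and *Ras85D*, the Ras GTPase, were higher by 1.78 and 1.02, while the receptors *Pvr*, which binds *Pvf2* (−0.65), and *Egfr* (−2.19) were lower. Among 23 hemocyte transcription factors, 4 were higher, including *pnr*, a GATA factor (1.15), and *foxo* (0.68), and 8 were lower.

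Plasmatocyte genes did not move one way. Of 19 tested, 7 were higher, 5 lower and 7 not called (median −0.09). *NimC1*, a phagocytosis receptor, had 130, 105, 121 and 165 scaled CPM in LM-gated and 78.7, 81.1, 68.9 and 102 in other cells (0.66 ± 0.08), without overlap. Without scaling factors, *NimC1* averaged 144 CPM in PM-gated and 10.9 in PH-gated cells, so no rise over PM-gated cells is shown. *Hml*, hemolectin, had 968, 737, 883 and 1384 against 1088, 1119, 1183 and 2057 (−0.44 ± 0.06), with overlapping groups. *Sr-CIV*, a scavenger receptor, was 1.96 higher, and *Nplp2*, the most abundant gene of this list, had a mean of 21688 ± 2964 against 33981 ± 1352 scaled CPM (−0.66). *Nplp2* is not particular to plasmatocytes, with means of 29919 CPM in PH-gated and 37893 in PM-gated cells. The PM gate was also passed by 399 LM-gated cells (44.1%), and the PH gate by 127 (14.03%), leaving 379 (41.9%) with neither. Whether such barcodes hold 1 cell or more was not tested here.

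When the LM-gated cells that passed a second gate were left out, 2097 of 6785 genes were called, 997 higher and 1100 lower. Of the genes called before, 25 turned direction. *NimC1* went from 0.66 to −3.37, which the choice of cells fixes. *Sr-CI*, a scavenger receptor, went from 0.87 to −0.86 and *drpr*, the engulfment receptor, from 0.88 to −1.25. Neither is a gate gene, but PM-gated cells were left out of the LM-gated side only. *Sr-CI* averaged 299 CPM in PM-gated and 19.9 in PH-gated cells, so its turn cannot be told apart from the choice of cells. For *drpr* this was not tested. Plasmatocyte genes then counted 4 higher and 11 lower of 19 (median −1.25), but 4 of the 11 were *Hml*, *Pxn*, *NimC1* and *eater*, on which the cells had been left out, and nothing is read from that count. The known lamellocyte list had 11 higher and none lower (median 2.21), and mitosis 1 higher and 31 lower of 40 (median −1.43). Of the 379 cells left, 219 were in the upper and 54 in the lower tertile of gate share described below. The size of these medians cannot be told apart from that choice of cells.

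Against PM-gated cells alone, 33.3% of 6862 genes were called, 16.7% higher and 16.6% lower in LM-gated cells. The genes of the PM and PH gates were left out here. The 2284 calls became 1002 without the block and 983 with thinned cells. The leading higher genes were *CG12655* (7.91), *CG34330* (7.86), *betaTub60D* (7.43), *CR43432* (7.04), *Drip* (6.85) and *alphaTub85E* (6.42). *CG12655* had only 2 UMIs in PM-gated cells, a ratio of 375 (counting interval 102 to 3124) that was 231 without library 2 and 627 without library 1. Beside *PPO1* and *PPO2*, the leading lower genes were *CG43187* (−2.83), *Cyt-b5-r*, a cytochrome b5 related protein (−2.18), *CG11236* (−2.02) and *alpha-Est1*, an esterase (−1.92). *PPO1* was at least 54.3-fold lower, and *PPO2* was 145 times higher in PM-gated cells (interval 40.1 to 1200). These folds came from 11 PM-gated cells with a *PPO1* UMI and 50 with a *PPO2* UMI, and without library 1 they were at least 15.5 and 35.1.

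Against PH-gated cells, 50.9% of 6862 genes were called, 25.7% higher and 25.3% lower, and 1743 genes were called in place of 3494 with thinned cells. *ItgalphaPS5* led together with tubulins, *CR42738* (7.61), *CR43432* (7.42) and *CG34330*, which had 3 UMIs in PH-gated cells and a ratio of 430 (interval 146 to 2094). *ItgalphaPS5* had 49.2, 40.7, 48.3 and 32.0 scaled CPM in LM-gated cells against at most 0.571 in any PH-gated sum (7.57 ± 0.34). *mthl7* was at least 64.7-fold lower, and *CG15550* (−5.82), *kn* (−5.49), *mthl13* (−5.43), *CG13160* (−5.17) and *IM18* (−4.99) followed. Only 51 of 3812 PH-gated cells (1.34%) had a *mthl7* UMI, so its fold rests on few cells and does not describe PH-gated cells at large. *mthl13* had 3 UMIs in LM-gated cells, and the ratio was 41.1 (interval 13.98 to 200.01), or 75.4 without library 2.

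These contrasts share their LM-gated sums, so their values are set side by side without a test between them. Basement membrane genes differed in direction: 2 of 9 were higher and 6 lower against PM-gated cells (median −0.74), and 8 were higher and 1 lower against PH-gated cells (median 1.29). *Cg25C*, the collagen IV chain alpha1, had 296, 218, 257 and 461 scaled CPM in LM-gated cells, 438 to 801 in PM-gated and 21.7 to 37.7 in PH-gated cells. LM-gated sums lay above all PH-gated sums, and were lower than the PM-gated sum of the same library in all 4 libraries, although the ranges overlapped. *kay* was lower against PM-gated (−0.28) and higher against PH-gated cells (0.42). Mitosis genes were lower in both, with 30 and 32 of 40. PSC genes were lower against PH-gated cells in 10 of 11, but against PM-gated cells 5 were lower, 2 higher and 4 not called. A *kn* UMI was found in 485 PH-gated and 16 PM-gated cells.

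LM-gated cells also differed among themselves. Within each library they were divided into tertiles by their share of gate UMIs, which are ranges of a score and not cell types. From the lower over the middle to the upper tertile, the share of cells that also passed the PM gate was 70.5%, 52.98% and 8.64%, and that of cells passing neither other gate was 17.9%, 35.1% and 72.8%. Median UMIs were 7324, 5684 and 4382, so depth differed with the tertiles, and its part in the differences was not tested. Of 4772 genes, 25.3% were called between the upper and the lower tertile, 13.3% higher and 12% lower. The tertiles were cut on the same UMIs that chose the cells, so these values describe which genes vary with gate share, and are no independent support for the comparison with other cells. The 1209 calls became 715 without replicate 1 and 779 with DESeq2.

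*betaTub60D* had a mean of 12.9 CPM in PH-gated, 14.4 in PM-gated, 179 in lower, 1353 in middle and 7161 in upper tertile cells (CPM without the scaling factors). It was detected in 32.8%, 63.9% and 98.3% of cells of the tertiles. *Drip* followed with 1.79, 18.8 and 553 CPM, the first of these close to the 1.38 of PM-gated cells. *mys* had means of 372, 612 and 1323 CPM, and rose by 1.91 ± 0.14 on the log2 scale from the lower to the upper tertile. *Treh* stayed at 78.2 and 119 CPM in the lower and middle tertile and reached 801 in the upper, and *Tret1-1* likewise went from 7.76 and 16.8 to 268 CPM.

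**Figure D4:**
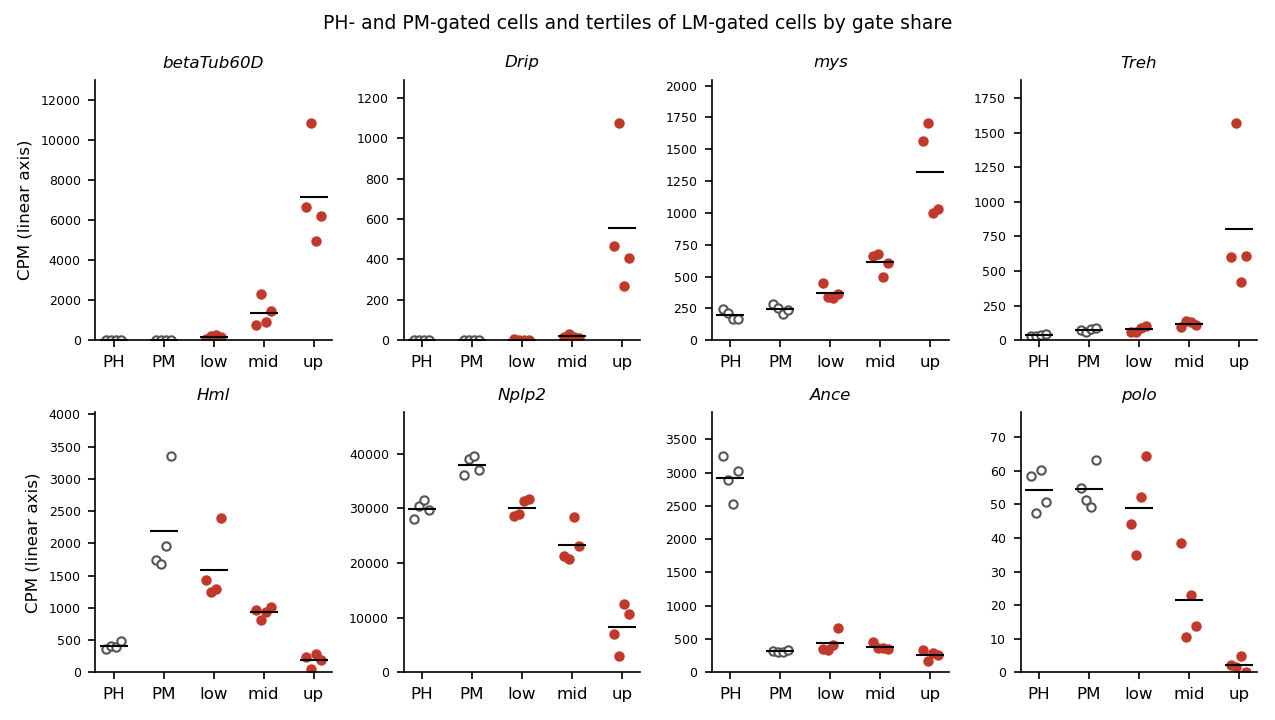
CPM (linear axes from 0, without scaling factors) of 8 genes in PH-gated and PM-gated cells (open) and in the lower, middle and upper tertile of LM-gated cells by gate share (filled), with 1 point per library and the mean as a line. *betaTub60D* averaged 179, 1353 and 7161 CPM over the tertiles, while *polo* averaged 48.9, 21.5 and 2.18.

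Plasmatocyte genes ran the other way: 8 of 14 were lower and 2 higher in the upper tertile (median −1.20). *Hml* had 1438, 1164, 1264 and 2284 scaled CPM in the lower tertile and 245, 62.9, 290 and 187 in the upper, a difference of −2.99 ± 0.25 (FDR = 2.03e-06). Its mean in the lower tertile, 1590 CPM, lay between those of the middle tertile (933) and of PM-gated cells (2190). *Pxn*, peroxidasin, (−3.76), and *eater*, a phagocytosis receptor (−2.61), were lower as well. *Nplp2* had means of 30082, 23354 and 8269 CPM, beside 29919 in PH-gated and 37893 in PM-gated cells. *Sr-CIV* rose instead, with 152, 263 and 422 CPM (1.55). Basement membrane genes were lower in 7 of 10 (median −2.12).

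Mitosis genes were lower in the upper tertile in 20 of 25 tested, with 1 higher (median −2.09). *CycB*, the cyclin B of mitotic entry, was detected in 18.5% of lower tertile, 7.62% of middle tertile and 0 of 301 upper tertile cells, which allows a share of cells with a UMI, not of cells expressing it, of up to 0.997%. After thinning to 1000 UMIs these shares were 4.64%, 0.664% and 0 of 291 cells. By UMIs it was at least 21.7-fold lower in the upper tertile, or 13.4-fold without library 2. *mud* and *fat-spondin* also had 0 UMIs there, at least 18.0- and 15.5-fold lower, or 11.1-fold without library 2 (11.5-fold without library 3) and 7.99-fold without library 3. *cmet*, a kinetochore motor, had 1 UMI there and a ratio of 70.3 (interval 12.3 to 2807; at least 14.8 without library 3) for the lower tertile, and *AttD*, an antibacterial peptide, a ratio of 48.4 (16.3 to 237). *CG14523* had a ratio of 42.9 (11.6 to 359), or 66.4 without library 1.

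Higher in the upper tertile were *CG4607* (at least 66.6-fold), *Or46a* (at least 31.5-fold) and *CG11395* (at least 24.8-fold), which had 0 UMIs in the lower tertile. *CR43432* followed with 1 UMI there and a ratio of 501 (89.4 to 19843), and *CG34330* with 2 UMIs and a ratio of 219 (60.1 to 1814). *Drip* was 8.09 higher. Library 2 carried most of these UMIs: without it the folds of *CG4607*, *Or46a* and *CG11395* were at least 18.4, 8.03 and 5.67, and the ratios of *CR43432* and *CG34330* were 130 and 50.3. Without library 4, *CR43432* was at least 156-fold higher and the ratio of *CG34330* was 408, or 361 without library 1. *N* was lower, with 33.7, 46.4, 33.1 and 88.2 scaled CPM in the lower and 7.27, 1.75, 8.14 and 0 in the upper tertile (−3.04 ± 0.47). The known lamellocyte genes counted 10 higher and 1 lower of 14 (median 1.97); the lower one was *kay* (−0.37). Among the trehalose and sugar uptake genes 3 of 4 were higher (median 4.25).

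The last comparison set the LM-gated cells of the lymph gland beside those of the circulation of infested larvae at 120 h AEL, where 5631 of 7168 barcodes passed the gate. The quantity tested was the log2 difference between LM-gated and other cells, in the lymph gland minus that in the circulation. Tissue and age changed together and cannot be told apart. Of 7705 genes, 25.6% were called, 10.5% with a higher and 15.1% with a lower difference in the lymph gland. The excess of lower ones depended on the processing, with 849 higher and 845 lower under DESeq2, 822 and 838 with the cell filter, and 930 and 951 without mitochondrial and ribosomal RNA genes. LM-gated cells had a median gate share of 0.305% in the lymph gland and 1.82% in the circulation, and the part of that gap in the differences was not tested beyond the stricter gate. Other cells held gate genes too, with *atilla* in 7.47% of them in the lymph gland and 26.0% in the circulation. For *CG14610* these shares were 6.48% and 29.1%, and the part of this in the differences was not tested.

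**Figure D5:**
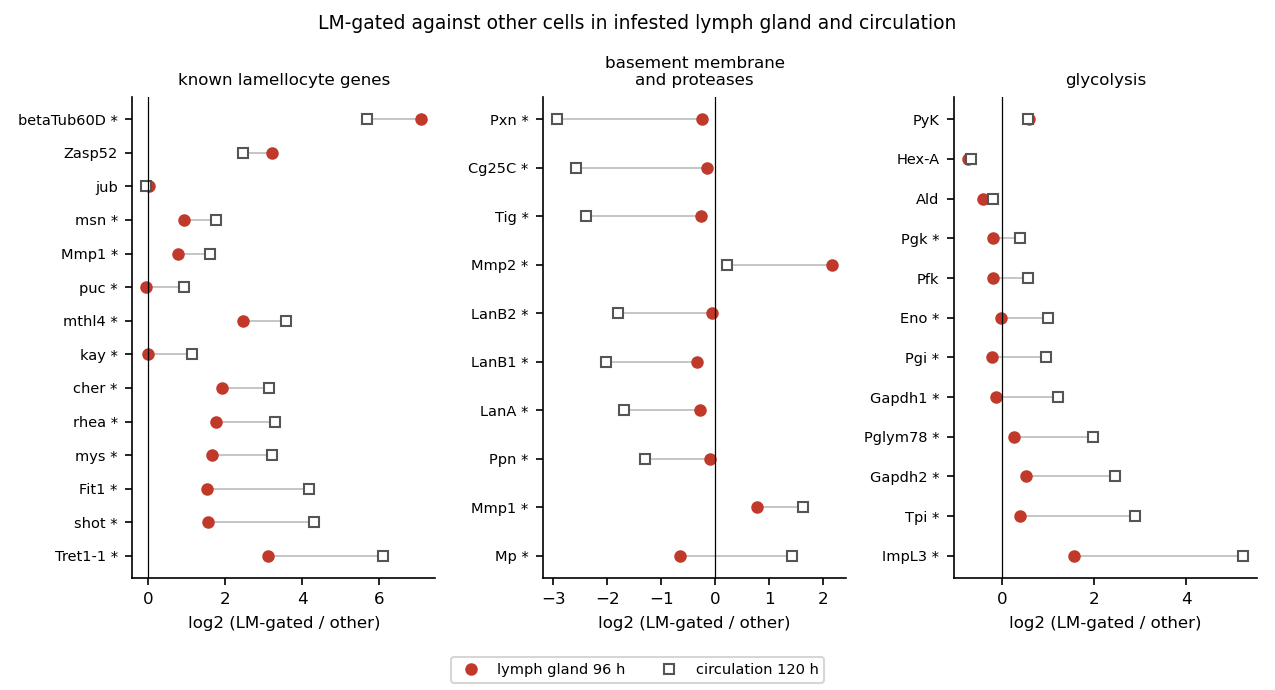
Log2 ratio of LM-gated to other cells in infested lymph gland of 96 h AEL (filled circles) and infested circulation of 120 h AEL (open squares) for 3 gene lists, with a star where the 2 ratios differed at an FDR under 0.05. For *shot* the ratio was 1.57 in the lymph gland and 4.31 in the circulation.

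Known lamellocyte genes were set off less sharply in the lymph gland, with a lower difference for 11 of 14 and a higher one for 1 (median −1.13). *shot*, a spectraplakin that links actin to microtubules, averaged 338 scaled CPM in LM-gated and 113 in other lymph gland cells, and 1215 and 61.1 in the circulation (−2.74 ± 0.28, FDR = 1.28e-05). *mys* averaged 758 and 239 against 2457 and 265 (−1.56 ± 0.10). The level of *mys* in the other cells was thus close in both tissues, and the gap lay in the LM-gated cells. *Fit1*, a kindlin (−2.65), and *Tret1-1* (−2.99) showed the same order. *betaTub60D* went the other way (1.41 ± 0.19): it averaged 2674 against 10689 scaled CPM in LM-gated cells, but 19.1 against 208 in other cells.

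*puc* and *kay*, not called within the lymph gland, were higher in LM-gated than in other cells of the circulation by 0.93 and 1.16. Their differences between the tissues were −0.97 and −1.15. *kay* averaged 656 scaled CPM in other cells of the lymph gland and 213 in those of the circulation, while LM-gated cells had 655 and 470.

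Glycolytic genes had a lower difference in the lymph gland for 8 of 12 and a higher one for none (median −1.09). *Tpi*, triose phosphate isomerase, averaged 117 and 86.8 scaled CPM in LM-gated and other lymph gland cells, against 443 and 59.5 in the circulation (−2.50 ± 0.19). *Gapdh2*, glyceraldehyde-3-phosphate dehydrogenase, followed with −1.92. Vacuolar ATPase genes had a lower difference for 14 of 17 and endocytosis and secretion genes for 19 of 26, with medians of −0.41 and −0.48.

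Plasmatocyte, basement membrane and division genes went the other way. The difference was higher in the lymph gland for 12 of 20 plasmatocyte genes (median 1.21), 8 of 10 basement membrane genes (1.72), 28 of 40 mitosis genes (1.09) and 22 of 33 replication genes (0.71). The make-up of the cells differed too. Other cells passed the PM gate in 49.1% and the PH gate in 41.1% in the lymph gland, against 63.8% and 14.2% in the circulation. LM-gated cells also passed the PM gate in 44.1% and 19.4%. The part of this in the differences was not tested. *NimC1* averaged 138 and 86.8 scaled CPM in the lymph gland, but 189 and 720 in the circulation (2.68 ± 0.20). *polo* averaged 29.1 and 57.8 against 6.80 and 53.3 (1.95 ± 0.22), so that its level in the other cells was close while LM-gated cells differed.

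Leading single genes with a higher difference in the lymph gland were *Ect3*, a predicted beta-galactosidase (4.18), *CG31999* (3.20), *CG31674* (3.06), *Klp67A*, a mitotic kinesin (2.88), *CG14527* (2.85) and *CG42711* (2.77). The first of these were near the floor in the lymph gland. *Ect3* averaged 2.01 scaled CPM in LM-gated and 0.395 in other cells there. *CG31999* had 2.15 and 1.35, and *CG31674* 3.93 and 2.28, so these genes reached the level limit for naming only in the circulation. *CG42711* averaged 80.0 and 62.0 scaled CPM in the lymph gland, but 64.1 and 317 in the circulation. Genes with a lower difference were *CNMa*, a neuropeptide (−4.61), *Glycogenin*, which primes glycogen (−3.66), *Prx2540-1*, a peroxiredoxin (−3.61), *form3*, a formin that builds actin filaments (−3.58), and *MFS3*, a predicted transporter (−3.37). Lymph gland levels were low here too, with 1.07 scaled CPM of *CNMa* in LM-gated and 0.353 in other cells. *Glycogenin* had 3.36 and 7.50, *Prx2540-1* 0.449 and 1.78, and *form3* 4.70 and 0.822. *MFS3* averaged 12.3 and 28.5 against 121 and 26.0, lower in LM-gated cells of one tissue and higher in those of the other. After thinning all cells to 1000 UMIs, 567 genes were called in place of 1975, and *Ect3*, *CG31674*, *CG14527*, *CNMa*, *Prx2540-1*, *form3* and *Tret1-1* were no longer among them. With the stricter gate of 6 UMIs and 0.2%, 1091 genes were called, without *CG31999* and *CG31674*.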

How the data were processed

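Drop-seq libraries of 4 infested lymph gland samples, 5 normal lymph gland samples of the same age and 3 infested circulation samples were compared. The authors deposited raw counts (UMIs per gene and barcode, not normalized). The submitters' processing notes name STAR 2.5.3a, Picard and the BDGP6 build; whether reads were counted by strand is not given in the sources used here. Tubulins, actins and other near-identical copies are uncertain where reads could be shared.

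UMIs were summed per library and cell class and tested with edgeR 4.0.16 (limma 3.58.1, R 4.3.3; quasi-likelihood test, TMM scaling, library as a block, Benjamini-Hochberg adjustment, FDR under 0.05). Cells of one library share animals and processing, which is where this pairing comes from. The 6 gate genes were left out of every test, and the PM and PH gate genes from the comparisons with those cells. Tertiles needed at least 10 cells per sum. The infested lymph gland files hold barcodes that had already been filtered on genes and mitochondrial UMIs, as the study's methods describe, while the normal lymph gland and circulation files do not. No further barcode was filtered in the main analysis, and no doublet caller was run here. The study's methods ran one, which flagged no cell of the infested lymph glands. The 541 genes listed only in the normal lymph gland files were not analysed here.

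Named genes were the called genes with the largest fold change, 12 per direction in the first comparison and 6 in the others. Their higher side averaged 20 CPM or more, and the libraries of a tissue all moved one way. Between tissues, any cell group of either tissue could meet the 20 CPM, so lymph gland levels could be lower. Genes of the lists were named by role. Members and lists were chosen with earlier results of these data known. Gene locations come from Ensembl annotation, which matched 63 of 76 names. On simulated data for the first comparison, 76% of genes changed 2-fold and 93% of those changed 4-fold were recovered, and 9.63% of calls were unchanged genes. Alternatives were DESeq2 1.42.0, no low-count filter, a cell filter, stricter and looser gates, cells thinned to 1000 UMIs, no block and each library left out. For the first comparison, LM-gated cells that passed a second gate were also left out.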

Additional observations from a re-analysis of the deposited data

Results flagged for a closer look

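In groups of 4 or 5 libraries, 11 of 76 tested groups held a library far from the others. The usual rate of 1 in 20 does not apply, since most groups reuse the same libraries and hold genes picked for their fold change. Library 2 stood apart in its LM-gated cells, with 131 scaled CPM of *CG34330*, 4162 of *betaTub60D*, 348 of *Drip*, 3404 of *alphaTub85E* and 94.5 of *Sep4*. The upper tertile of its LM-gated cells had the highest median gate share, 2.90%. Library 4 stood apart in LM-gated cells for the niche genes *CG15550* (52.4 scaled CPM) and *kn* (6.72), and for *CG13160* (9.41). *PPO2* was found in LM-gated cells only in library 1 (1.18 scaled CPM). Within the tertiles, *CR43432* was found in the lower tertile only in library 4 (2.94) and *cmet* in the upper tertile only in library 3 (1.63). Their causes were not tested.

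The difference between LM-gated and other cells differed between lymph gland and circulation for 1975 genes by the interaction test in edgeR. The log2 differences were 4.18 for *Ect3*, 3.20 for *CG31999*, 3.06 for *CG31674*, 2.88 for *Klp67A*, 2.85 for *CG14527* and 2.77 for *CG42711*. They were −4.61 for *CNMa*, −3.66 for *Glycogenin*, −3.61 for *Prx2540-1*, −3.58 for *form3*, −3.37 for *MFS3* and −2.99 for *Tret1-1*. In the lymph gland *Ect3*, *CG31999*, *CG31674*, *CNMa*, *Prx2540-1* and *form3* averaged at most 4.70 scaled CPM.

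The libraries labelled infested circulation of 96 h AEL, used in no test, held a mean of 14.2% LM-gated barcodes, against 0.261% in the normal circulation of that age.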

How the results depend on the processing

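Among genes named by fold change, 899 values were taken under the alternatives. Of these, 889 kept their direction and their side of the threshold, 10 lost the call and none turned. Genes named only from the lists were not counted. When LM-gated cells that passed a second gate were left out of the first comparison, 25 called genes turned, among them *NimC1*, *Sr-CI* and *drpr*. The difference in LM share was 5.38 points with the stricter gate, 5.23 with thinned cells and 5.00 without *atilla*. It was 9.19 with libraries paired by number (exact p = 0.125 over sign changes), and between 8.40 and 9.84 when a library was left out. Without the library block, 1349 genes differed between LM-gated and other cells, 1002 between LM-gated and PM-gated cells, 2390 against PH-gated cells and 924 between tertiles. With thinned cells the first 3 counts were 1234, 983 and 1743. Between tertiles DESeq2 called 779 genes in place of 1209, and 715 were called without replicate 1. Between tissues the stricter gate gave 1091 and thinned cells 567 genes in place of 1975. When each library was left out, the counts ran from 1999 to 2391, 1743 to 2089, 2976 to 3389, 715 to 1021 and 1457 to 2015 for the 5 comparisons in order. Without the low-count filter, 19.5% of the genes called between tissues had a higher difference in the lymph gland, against 41.1% with it. Median UMIs per cell were 7324 in the lower and 4382 in the upper tertile, and no fit on thinned cells was run between them.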

Other observations

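LM-gated cells of the other groups gave levels of the same genes without a test (CPM without scaling factors, SD over libraries). *betaTub60D* averaged 2825 ± 1953 in the 122 LM-gated cells of normal lymph glands of 120 h AEL, 2537 ± 1109 in infested lymph glands and 9728 ± 719 in the infested circulation of 120 h AEL, so the first pair lay within their spread. *Nplp2*, abundant in both PH-gated and PM-gated cells, averaged 3850 ± 2851 in normal lymph glands of 120 h AEL, 21774 ± 2938 in infested lymph glands and 2495 ± 508 in the infested circulation of 120 h AEL. *mys* averaged 957 ± 321, 718 ± 143 and 2240 ± 92.2 in the same order.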
